A study of Mus musculus with 18 samples.

Results

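Genes of the IFNγ pathway were followed across all conditions of the series: the receptor genes Ifngr1 and Ifngr2, the kinase genes Jak1 and Jak2, and the transcription factor genes Stat2, Stat3, Stat5a, Stat5b and Stat6. They were taken by name, through their Ensembl mouse identifiers, and are 9 of the 43629 identifiers with a count row. All 9 passed the filter on low counts, which left 11964 genes for the tests.

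Gene expression was measured by QuantSeq, which sequences the 3′ ends of polyadenylated RNA, in AT3 cells, a mouse mammary carcinoma line that the study used as a model of triple-negative breast cancer. The 6 conditions, of 3 libraries each, were DMSO, A-241 at 250 nM and A-485 at 1000 nM, each begun 1 h before the addition of recombinant murine IFNγ (1 ng/mL) or of its vehicle, which lasted 2 h. A-241 and A-485 inhibit the catalytic acetyltransferase domain of P300 and CBP, paralogous enzymes that acetylate histones at active regulatory elements. All conditions share the same line, the same total time of 3 h and the same kit, and no other line was used. The submitters' labels call the triplicates biological and the study's methods call them technical, so p-values may measure only the technical spread between libraries.

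IFNγ binds a receptor made of the chains encoded by Ifngr1 and Ifngr2, to which the kinases JAK1 and JAK2 are attached. The kinases phosphorylate each other and the receptor, and STAT proteins dock there, are phosphorylated, pair and enter the nucleus. Different cytokines use different STATs: STAT2 is best known from type I interferon signalling, where it works with IRF9, STAT3 from IL-6 family cytokines, STAT5A and STAT5B from prolactin, growth hormone and IL-2, and STAT6 from IL-4 and IL-13. Some STAT genes are themselves targets of interferon or of STATs, so their transcripts can change after the signal has been passed on.

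Promoter sequences were examined because transcripts of 2 members, Stat2 and Stat3, shifted most with IFNγ. The windows were those of RefSeq on GRCm38.p6, from 250 bases before to 50 bases after a transcription start, and 11 windows covered all 9 genes, with a second window each for Stat5a and Stat5b. The element GAAANNGAAA, the core that interferon regulatory factors and the STAT2 complex are known to bind, was searched on both strands (TTTCNNTTTC on the other). It was found in 3.44% of all 32851 windows and, among the members, only in that of Stat2, where the match begins at position -222 from the start. The palindromic STAT element TTCNNNGAA was found in 8.30% of all windows and in none of the 11. A match describes letters and no match says only that these letters were not in these windows. The 250 bases before the start are shown for Stat2, at chr10:128270248-128270497 on the plus strand, and for Stat3, at chr11:100939541-100939790 on the minus strand, with the match in capitals.
Stat2: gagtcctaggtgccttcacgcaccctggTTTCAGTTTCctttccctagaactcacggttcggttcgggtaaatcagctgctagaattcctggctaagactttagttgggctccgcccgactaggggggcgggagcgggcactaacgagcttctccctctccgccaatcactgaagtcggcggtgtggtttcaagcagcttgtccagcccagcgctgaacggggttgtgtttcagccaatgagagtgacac
Stat3: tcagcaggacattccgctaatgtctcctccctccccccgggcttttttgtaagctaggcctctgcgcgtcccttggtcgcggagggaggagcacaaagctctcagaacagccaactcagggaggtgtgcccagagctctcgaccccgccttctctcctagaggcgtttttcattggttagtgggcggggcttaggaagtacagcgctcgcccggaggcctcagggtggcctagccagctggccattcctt

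Depth ranged from 3417167 to 7856830 counts per library, and 3 counts corresponded to between 0.382 and 0.878 CPM (counts scaled to a common library total) before the TMM factors that scale the CPM of genes below. Of the 18 libraries, 2 stood apart from the other 16, namely DMSO replicate 3 and IFNγ replicate 2, and their deviations from their own conditions were alike (r = 0.828 across the genes tested, which are not independent). The labels do not say whether they share a preparation. Gm42418, a transcript that overlaps ribosomal RNA sequence, took 20.1% and 23.0% of their counts, against 7.11% to 16.2% elsewhere. Their root mean square deviation from their condition's mean over all genes tested was 0.731 and 0.755 log2 CPM, against 0.226 to 0.512 elsewhere. By Igtp, an IFNγ-induced GTPase, both libraries matched their labels, at 6.22 CPM in the DMSO library and at 290 CPM in the IFNγ library. Of 5 genes chosen to check the treatment, 4 (Gbp2, Cxcl10, Igtp and Tap1) rose with IFNγ, and the fifth, Psmb8, did not pass the test. Gbp2, Igtp and Tap1 were highest of all libraries in IFNγ replicate 2. Cxcl10 and Psmb8 stood there at 121 and 3.87 CPM, against 300 and 16.6 CPM in IFNγ replicate 1 and 250 and 6.47 CPM in replicate 3. Whether replicate 2 responded in full was not tested. Of 8 epithelial markers 7 passed the filter, all but Cldn4, and the 8 summed to between 1117 and 1877 CPM, with 1702 to 1877 CPM with DMSO and 1117 to 1126 CPM with A-241, where Krt14 and Krt18 were called lower (log2 fold changes of -1.50 and -0.84). Of 4 mesenchymal markers 3 passed the filter, all but Zeb1, which had 2 to 10 counts in a library. The 4 summed to between 436 and 825 CPM, mostly from Fn1, which reached 608 CPM and was called lower with A-241 (-0.65). Transcripts of some markers of both kinds were thus present. Of the leukocyte markers, Csf1r and Cd3e were at 0 in 13 and 12 libraries, but Lyz2 had 3 to 178 counts and up to 32.7 CPM, Nkg7 and Ptprc reached 17.6 and 17.1 CPM, and Itgam and Cd68 had at least 1 count in every library. The highest value of Ptprc was in an A-485 library. The part of these marker levels in the results was not tested.

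The effect of IFNγ on its own signalling genes was addressed first. Of the 9 genes, only Stat2 passed the test, at an adjusted p under 0.01 over all genes (edgeR's quasi-likelihood test), against 1.30% of all genes tested. All 9 fitted values were above 0, with a median log2 fold change of 0.43 over the 9 and of -0.0028 over all genes. They rest on the same libraries, and the signs of Ifngr1, Ifngr2, Stat5a and Stat6 were not stable when single libraries were left out. Ifngr1, Ifngr2 and Stat6 had the values closest to 0, and Stat3 had the largest after Stat2.

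**Figure D1:**
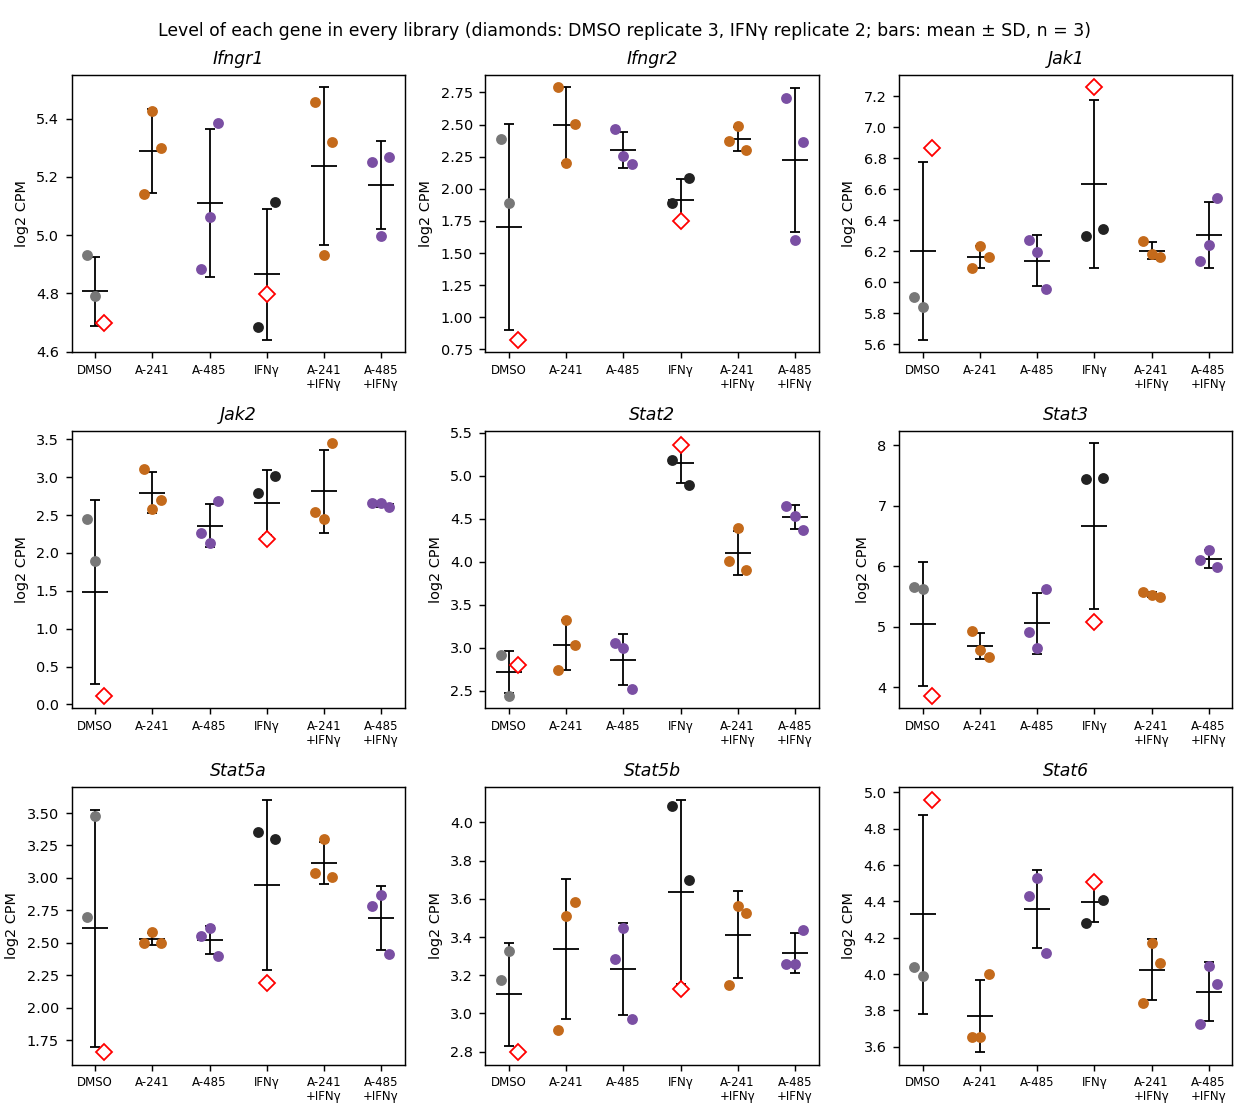
Level of each of the 9 genes, in log2 CPM, in every library of the 6 conditions; short bars are the mean with the SD of 3 libraries, and open diamonds are DMSO replicate 3 and IFNγ replicate 2. Stat2 is higher in all IFNγ libraries than in all DMSO libraries. Both diamonds lie far from the other libraries of their condition for Stat3, Jak1 and Stat5a. The DMSO diamond also lies well below the other DMSO libraries for Jak2 and Ifngr2 and well above them for Stat6. The vertical axis differs between panels and does not start at 0.

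Neither receptor gene passed the test. Ifngr1, the ligand-binding chain, stood at 30.1, 27.3 and 25.6 CPM in the 3 DMSO libraries and at 25.3, 27.4 and 34.3 CPM in the 3 IFNγ libraries. The groups overlapped, and the log2 fold change was 0.07 (95% interval -0.32 to 0.45). Ifngr2, the second chain, stood at 4.85, 3.32 and 1.38 CPM with DMSO and at 3.32, 2.98 and 3.85 CPM with IFNγ. These values rest on 4 to 27 counts per library, and the difference was 0.04 on the log2 scale with an interval of -0.72 to 0.80.

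Of the kinase genes, neither passed the test. Jak1 had 59.4, 57.0 and 116 CPM with DMSO and 78.3, 153 and 80.8 CPM with IFNγ. The high value of each condition was in the library that stood apart, and the groups overlapped. For Jak1 the log2 fold change was 0.43 (interval -0.15 to 1.00, adjusted p = 0.782, edgeR), 0.84 without DMSO replicate 3 and 0.05 without IFNγ replicate 2. Jak2 had 5.06, 3.32 and 0.691 CPM with DMSO and 6.51, 4.17 and 7.69 CPM with IFNγ. The lowest DMSO value of Jak2 came from 2 counts, in DMSO replicate 3, and the log2 fold change of 0.95 (interval 0.06 to 1.84) had an unadjusted p of 0.038 and an adjusted p of 0.529 in edgeR. Without that library it was 0.61.

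Stat2 rose with IFNγ. Its transcript stood at 7.17, 5.05 and 6.57 CPM in the DMSO libraries and at 36.0, 40.5 and 29.4 CPM in the IFNγ libraries. All 3 IFNγ libraries lay above all 3 DMSO libraries, as was so in one direction or the other for 7.85% of all genes tested. The log2 fold change was 2.50 (SE 0.23, interval 2.02 to 2.98, adjusted p = 2.45e-06, edgeR), and it lay between 2.35 and 2.63 when each library was left out in turn, with Stat2 called each time. In a fit of only these 6 libraries it was 2.51 and was not called, at an adjusted p of 0.015 in edgeR. The 5 genes whose log2 CPM followed that of Stat2 most closely over the 18 libraries were Igtp (Pearson's r 0.969), Parp14 (0.965), Cd274 (0.964), F830016B08Rik (0.963) and Rtp4 (0.953). The 18 points share 6 conditions, so r here reflects mainly the means of the conditions. Cd274 encodes the checkpoint ligand PD-L1 and Parp14 an ADP-ribosyltransferase.

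Stat3 had a large but uneven shift. It stood at 49.96, 48.8 and 14.2 CPM with DMSO and at 174, 33.4 and 176 CPM with IFNγ. The low value of each condition was in the library that stood apart, so that IFNγ replicate 2 lay below DMSO replicates 1 and 2 and the groups overlapped. With all libraries the log2 fold change of 1.75 (SE 0.49, interval 0.71 to 2.79) was not called, at an adjusted p of 0.112 in edgeR. Between the 2 libraries that stood apart the difference of Stat3 was 1.21 log2 CPM, higher with IFNγ, and between the means of the other libraries it was 1.82.

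Without these 2 libraries the spread of Stat3 was smaller. The log2 fold change with IFNγ was then 1.81 (SE 0.21, interval 1.37 to 2.26) and Stat3 was called at an adjusted p of 1.65e-05 in edgeR, when 2.03% of all genes tested were called. Without IFNγ replicate 2 alone the value was 2.19 (adjusted p = 0.00125, edgeR). Stat2 and Stat3 were the members called higher in that fit, with Stat2 at 2.43. The 2 libraries were identified by their share of Gm42418 and their deviation over all genes, not by Stat3, but this choice was made with the values of the series known. How depth, Gm42418 or anything else in these libraries bears on Stat3 was not tested.

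The remaining STAT genes did not pass the test. Stat5b stood at 8.64, 9.63 and 6.57 CPM with DMSO and at 16.6, 8.34 and 12.6 CPM with IFNγ, overlapping in IFNγ replicate 2, with a log2 fold change of 0.60 (SE 0.26, adjusted p = 0.491, edgeR). Stat5a had 6.11, 10.7 and 2.76 CPM with DMSO and 9.83, 4.17 and 9.44 CPM with IFNγ, and a log2 fold change of 0.23 (interval -0.51 to 0.97). Both Stat5a and Stat5b were lowest, within each condition, in the library that stood apart. Stat6 had 16.0, 15.5 and 30.8 CPM with DMSO and 19.1, 22.3 and 20.8 CPM with IFNγ, with the highest value in DMSO replicate 3. For Stat6 the log2 fold change was 0.02 (interval -0.47 to 0.51).

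Stat3 and Stat5a lie on opposite strands of chromosome 11 and end against each other. Their exons share 72 bases, chr11:100885098-100885169 on GRCm38, at the 3′ ends of both. QuantSeq reads fall at 3′ ends. The study's methods state the featureCounts option -O, by which a read counts for every gene it overlaps, and no strand option. A read there may therefore count for both genes. Over the 18 libraries Stat3 had 5784 counts and Stat5a 638, so values of Stat5a may hold reads of Stat3, and how many was not tested. Stat6 shares 40 exon bases with Nab2 and Jak1 shares 4 with Raver2, both on the opposite strand.

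The inhibitors alone were compared with DMSO next. With A-241, 0 of the 9 genes were called by edgeR, against 4.35% of all genes tested, and 3 had an unadjusted p under 0.05, namely Ifngr1, Jak2 and Stat6, as had 2781 of the 11964 genes tested. With A-485, 0 of the 9 were called, against 0.660% of all genes, and 0 had an unadjusted p under 0.05, as had 1472 of all genes. DESeq2 and limma-voom also called 0 of the 9 in each comparison.

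Ifngr1 stood at 34.9, 42.7 and 39.0 CPM with A-241, above all 3 DMSO libraries, and at 29.1, 33.0 and 41.4 CPM with A-485, which overlapped DMSO. The log2 fold changes of Ifngr1 were 0.49 with A-241 (interval 0.10 to 0.87, adjusted p = 0.113, edgeR) and 0.31 with A-485 (interval -0.07 to 0.70). Groups without overlap were found for 26.7% of all genes tested with A-241 and for 15.9% with A-485. Ifngr2 had log2 fold changes of 0.68 (interval -0.06 to 1.41) and 0.46 (interval -0.28 to 1.20), and without DMSO replicate 3, where it had 4 counts, they were 0.41 and 0.19.

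Jak2 stood at 8.20, 5.61 and 6.11 CPM with A-241, above all DMSO libraries, as groups were apart in either direction for 26.7% of all genes tested. Its log2 fold change was 1.04 (interval 0.14 to 1.93, adjusted p = 0.148, edgeR). Stat6 stood at 12.2, 12.2 and 15.6 CPM with A-241, where 1 library lay between DMSO values, with a log2 fold change of -0.61 (interval -1.12 to -0.11, adjusted p = 0.129, edgeR). Both values rest on DMSO replicate 3: without it they were 0.69 for Jak2 (interval -0.07 to 1.45) and -0.23 for Stat6 (interval -0.64 to 0.18). Stat2 differed from DMSO by 0.35 with A-241 (interval -0.15 to 0.85) and by 0.18 with A-485 (interval -0.33 to 0.68) on the log2 scale. Without IFNγ, then, neither inhibitor gave a called change of Stat2.

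Stat3 stood at 30.1, 24.2 and 22.3 CPM with A-241 and at 29.8, 24.6 and 48.8 CPM with A-485. All 6 values lay below DMSO replicate 1 and above DMSO replicate 3. The log2 fold change of Stat3 with A-241 was -0.58 (interval -1.62 to 0.46), and without the 2 libraries that stood apart it was -0.99 (interval -1.41 to -0.56, adjusted p = 0.00238, edgeR), where 8.13% of all genes were called. With A-485 it was -0.15 (interval -1.18 to 0.88) and, without them, -0.56 (adjusted p = 0.133, edgeR). Leaving out these libraries thus moved the value of A-241 by more than 1.5 times and gave it a call.

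**Figure D2:**
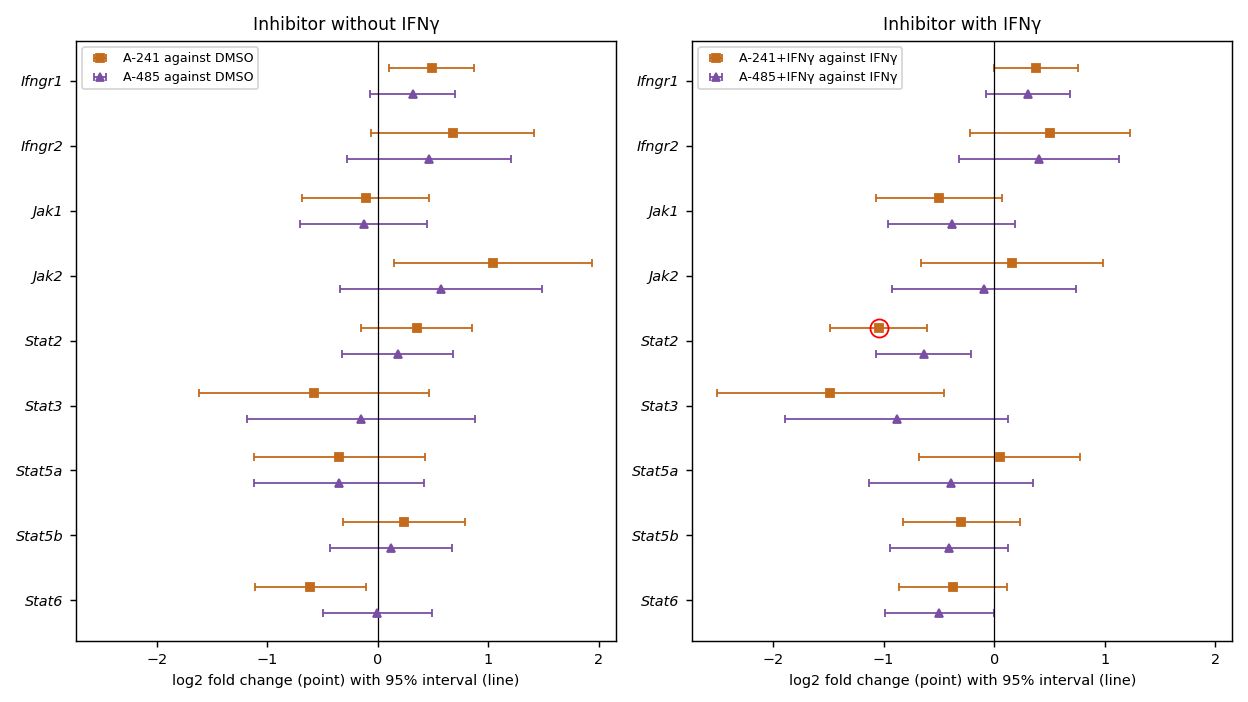
Log2 fold change of the 9 genes with A-241 (squares) and A-485 (triangles) against DMSO, on the left, and with IFNγ against IFNγ alone, on the right; lines are 95% intervals and a red ring marks an adjusted p under 0.01. The only ring is on Stat2 with A-241 and IFNγ, at -1.05, and the intervals of Stat3 are the widest on the right.

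In IFNγ-treated cells the inhibitors were compared with IFNγ alone. With A-241 only Stat2 was called of the 9, and it fell, against 4.09% of all genes tested in either direction. With A-485, 0 of the 9 were called by edgeR, against 0.552% of all genes, while 2 had an unadjusted p under 0.05, as had 1760 of all genes. DESeq2 and limma-voom also called 0, and voom with quality weights called 1, Stat3 (-1.26, adjusted p = 0.000779, limma).

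Stat2 stood at 15.7, 20.7 and 14.6 CPM with A-241 and IFNγ and at 24.7, 22.8 and 20.3 CPM with A-485 and IFNγ, against 29.4 to 40.5 CPM with IFNγ alone. All libraries of both inhibitors lay below all IFNγ libraries, a separation found for 23.8% of all genes tested with A-241 and for 20.6% with A-485. The log2 fold change of Stat2 with A-241 was -1.05 (SE 0.21, interval -1.48 to -0.61, adjusted p = 0.00413, edgeR). With A-485 the value was -0.64 (SE 0.20, interval -1.07 to -0.21), which was not called at an adjusted p of 0.138 in edgeR. The call with A-241 was lost without IFNγ replicate 1, IFNγ replicate 2, A-241 with IFNγ replicate 1 or A-241 with IFNγ replicate 3, where the value lay between -1.02 and -0.94 and the adjusted p between 0.0111 and 0.0277 in edgeR. It was also lost in a fit of only the groups compared (-1.05, adjusted p = 0.0771) and with total counts as library sizes (-0.87, adjusted p = 0.0191).

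Stat3 stood at 47.2, 45.7 and 44.8 CPM with A-241 and IFNγ and at 68.5, 77.2 and 63.3 CPM with A-485 and IFNγ. These values lay between IFNγ replicate 2 (33.4 CPM) and the other IFNγ libraries (174 and 176 CPM), so the groups overlapped through that 1 library. With all libraries Stat3 had log2 fold changes of -1.48 with A-241 (SE 0.48, adjusted p = 0.0781, edgeR) and -0.88 with A-485 (SE 0.48, adjusted p = 0.401, edgeR), and neither was called. Without the 2 libraries they were -1.94 (SE 0.19, adjusted p = 5.78e-07, edgeR, with 7.82% of all genes called) and -1.34 (SE 0.18, adjusted p = 0.000169, edgeR, with 2.68% called). Without IFNγ replicate 2 alone the value with A-241 was -1.93 (adjusted p = 0.00176, edgeR).

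Fitted values of both receptor genes with an inhibitor lay above those with IFNγ alone, and none was called. Ifngr1 stood at 43.5, 30.2 and 39.6 CPM with A-241 and IFNγ and at 37.7, 31.6 and 38.2 CPM with A-485 and IFNγ, with log2 fold changes against IFNγ of 0.38 (interval -0.0041 to 0.76) and 0.30 (interval -0.08 to 0.69). Ifngr2 had 4.79, 5.22 and 4.54 CPM with A-241 and IFNγ, above all IFNγ libraries, and log2 fold changes of 0.51 (interval -0.22 to 1.23) and 0.40 (interval -0.32 to 1.13). With A-241 such a separation, in either direction, was found for 23.8% of all genes tested. The lowest limit among the intervals of both receptor genes was -0.32, for Ifngr2 with A-485. These intervals cover only the spread between libraries, which may be technical.

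Jak1 and Stat6 lay below IFNγ alone with A-241 without overlap, and Stat6 did so with A-485 too, but none passed the test. Such a separation, in either direction, was found for 23.8% of all genes tested with A-241 and for 20.6% with A-485. Stat6 stood at 13.9, 17.6 and 16.3 CPM with A-241 and IFNγ and at 12.8, 16.1 and 15.01 CPM with A-485 and IFNγ, and the log2 fold changes were -0.37 (interval -0.86 to 0.12) and -0.50 (interval -0.99 to -0.0035). Jak1 stood at 76.6, 72.1 and 71.4 CPM with A-241 and IFNγ, close to the IFNγ libraries of 78.3 and 80.8 CPM, and its log2 fold change of -0.50 (interval -1.07 to 0.08) includes the IFNγ library of 153 CPM, without which it was -0.12. Stat5b had a value of -0.30 with A-241 (interval -0.83 to 0.23).

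The response to IFNγ that remained under an inhibitor was then compared with the inhibitor alone. Under A-485 only Stat2 was called, and it rose, against 0.802% of all genes tested. Under A-241, 0 of the 9 were called by edgeR, against 0.192% of all genes, while 1 had an unadjusted p under 0.05, as had 447 of all genes. Limma-voom called 0, and DESeq2 and voom with quality weights each called 1, which was Stat2.

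**Figure D3:**
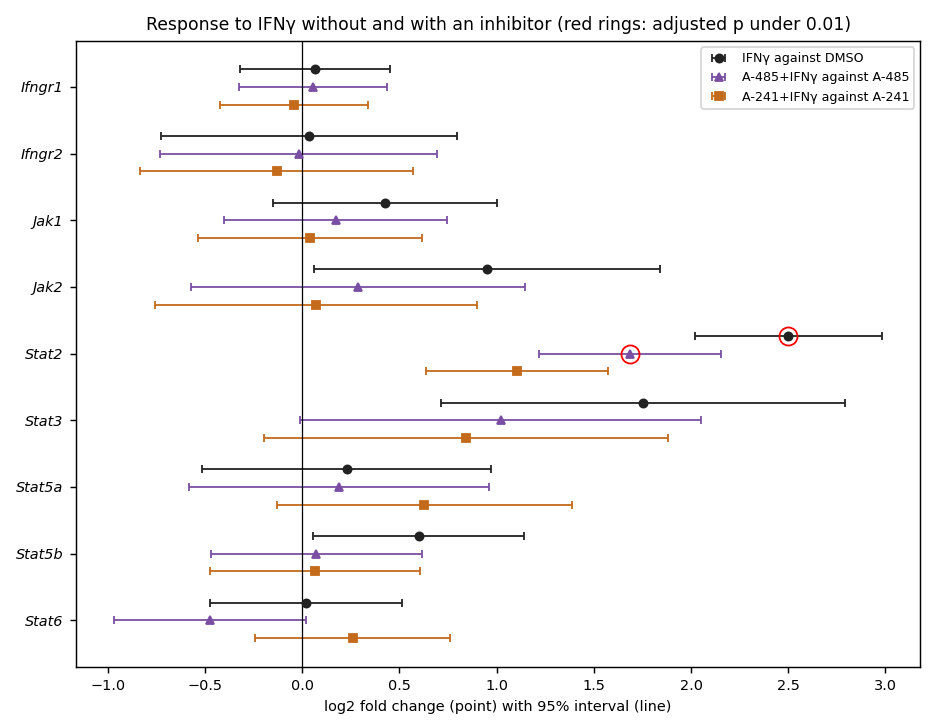
Log2 fold change of the 9 genes with IFNγ in cells given DMSO (circles), A-485 (triangles) or A-241 (squares), each against the same cells without IFNγ; lines are 95% intervals and a red ring marks an adjusted p under 0.01. The response of Stat2 is 2.50, 1.68 and 1.10 in that order, and those of Ifngr1 and Ifngr2 lie at 0 or near it in all 3.

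Stat2 stood at 7.94, 7.63 and 5.34 CPM with A-485 and at 6.31, 9.61 and 7.80 CPM with A-241 without IFNγ. All libraries with IFNγ and an inhibitor lay above those of that inhibitor alone. The log2 fold change was 1.68 under A-485 (SE 0.22, adjusted p = 0.000318, edgeR), called whichever library was left out, and 1.10 under A-241 (SE 0.22, interval 0.64 to 1.57, adjusted p = 0.0414, edgeR). The separation was seen for 2152 of the 11964 genes tested under A-485 and for 1589 under A-241. Without the 2 libraries that stood apart, which belong to neither of these groups but share in the estimate of spread, Stat2 was also called under A-241 (1.13, adjusted p = 0.00814, edgeR), where 0.478% of all genes were called.

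Stat3 with an inhibitor and IFNγ also lay above that inhibitor alone in all libraries. Its log2 fold change was 0.84 under A-241 (interval -0.20 to 1.88) and 1.02 under A-485 (interval -0.01 to 2.05), and neither was called. With the smaller spread of the fit without the 2 libraries, Stat3 was called under A-485 (1.03, adjusted p = 0.00151, edgeR, with 1.67% of all genes called) and not under A-241 (0.86, adjusted p = 0.0289, edgeR). Stat5a stood at 5.26, 5.61 and 5.27 CPM with A-241 and at 7.83, 9.46 and 7.63 CPM with A-241 and IFNγ, a log2 fold change of 0.63 (interval -0.13 to 1.39), and carries the shared bases with Stat3 described above. Stat6 lay lower with A-485 and IFNγ than with A-485 in all libraries, at -0.47 (interval -0.97 to 0.02).

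Whether the IFNγ response differed with an inhibitor was tested by the interaction, the response with the inhibitor minus that without it. No member was called for either inhibitor, against 0.0334% of all genes tested for A-241 and 0% for A-485, and only Stat2 had an unadjusted p under 0.05 in edgeR, as had 401 and 499 of all genes. DESeq2 and limma-voom also called 0 of the 9. The interaction of Stat2 was -1.40 for A-241 (SE 0.31, interval -2.06 to -0.73, unadjusted p = 0.000399, adjusted p = 0.152, edgeR) and -0.82 for A-485 (SE 0.31, interval -1.48 to -0.15, adjusted p = 0.9996, edgeR). For Stat3 it was -0.91 (interval -2.36 to 0.54) and -0.73 (interval -2.17 to 0.71), and for Jak2 with A-241 it was -0.88 (interval -2.10 to 0.34). For Stat3 the intervals, from the fit of all 18 libraries with its wide spread, hold both no difference and a loss of the whole response. The Stat2 response under an inhibitor and the fall of Stat2 against IFNγ alone use the same inhibitor libraries and are not independent.

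**Figure D4:**
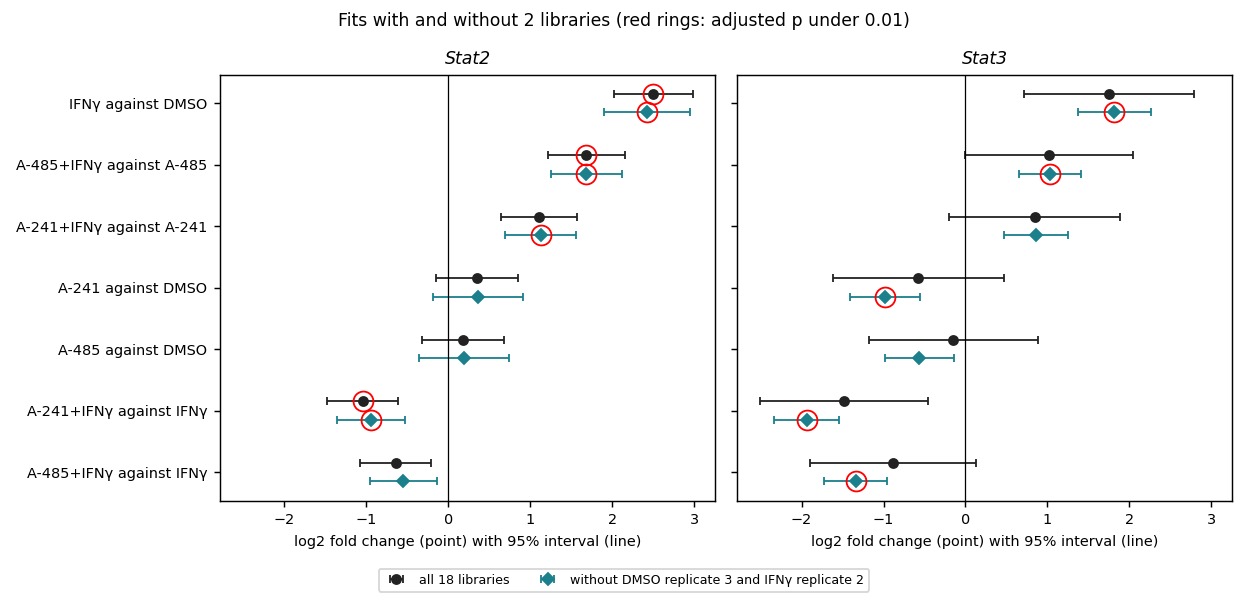
Log2 fold change with its 95% interval of Stat2 (left) and Stat3 (right) in 7 comparisons, fitted with all 18 libraries (circles) and without DMSO replicate 3 and IFNγ replicate 2 (diamonds); a red ring marks an adjusted p under 0.01. The points of Stat2 barely shift, while the intervals of Stat3 shorten and it gains 5 calls.

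Over the 6 conditions the levels of Stat2, as mean ± SD of 3 libraries, were 2.72 ± 0.25 log2 CPM with DMSO, 2.86 ± 0.30 with A-485, 3.03 ± 0.29 with A-241, 4.10 ± 0.26 with A-241 and IFNγ, 4.52 ± 0.14 with A-485 and IFNγ and 5.15 ± 0.23 with IFNγ. Neighbours among the 3 conditions without IFNγ differed by less than their SD, and the later steps in this order were larger than the SDs. Those of Stat3 were 4.69 ± 0.22 with A-241, 5.05 ± 1.02 with DMSO, 5.06 ± 0.50 with A-485, 5.53 ± 0.04 with A-241 and IFNγ, 6.13 ± 0.14 with A-485 and IFNγ and 6.66 ± 1.37 with IFNγ. Only the step from A-241 with IFNγ to A-485 with IFNγ was larger than the SDs on both sides, and the SD of Stat3 was largest in the 2 conditions that hold the libraries that stood apart. The other 7 genes spanned less. Of these Jak2 spanned most, with condition means from 1.48 ± 1.22 log2 CPM with DMSO to 2.81 ± 0.55 with A-241 and IFNγ. The condition means of Ifngr1 ran from 4.81 ± 0.12 log2 CPM with DMSO to 5.29 ± 0.14 with A-241. Those of Stat6 ran from 3.77 ± 0.20 with A-241 to 4.40 ± 0.11 with IFNγ.

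The doses of A-241 (250 nM) and A-485 (1000 nM) differed, so the direct tests compare the treatments as given. None of the 9 genes was called between them by edgeR, against 0.368% of all genes tested without IFNγ and 0.518% with it, and 1 and 0 had an unadjusted p under 0.05, as had 975 and 778 of all genes. DESeq2 and limma-voom also called 0, and voom with quality weights called 1 without IFNγ, Stat6 (-0.64, adjusted p = 0.00868, limma). Without IFNγ, Stat6 lay lower with A-241 (12.2 to 15.6 CPM) than with A-485 (21.2, 22.7 and 16.96 CPM) in all libraries. Such a separation, in either direction, was found for 22.6% of all genes tested. The log2 difference of Stat6 was -0.61 (interval -1.11 to -0.11, adjusted p = 0.440, edgeR). With IFNγ, Stat2 differed by -0.41 (interval -0.85 to 0.03) and Stat3 by -0.60 (interval -1.62 to 0.42). These intervals hold values from no difference to a sizeable one, so the treatments were not shown to act alike on these genes.

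The rest of the pathway was described by lists chosen with earlier results of the series known. Of 3 other JAK and STAT genes, Jak3 and Tyk2 were tested and not called in any comparison, and Stat4 had at most 1 count in a library. Of 28 other receptor chains that signal through JAKs, 15 were tested. With IFNγ, 1 rose and 0 fell: Ifnar2, a chain of the type I interferon receptor whose signal runs through STAT2, stood at 16.6, 13.1 and 16.2 CPM with DMSO and at 31.1, 31.6 and 39.3 CPM with IFNγ. All IFNγ libraries of Ifnar2 lay above all DMSO libraries, and the log2 fold change was 1.16 (SE 0.19, adjusted p = 0.0015, edgeR). Of all genes tested, 1.30% were called with IFNγ and 7.85% had groups without overlap, in either direction. Under A-485 the value of Ifnar2 was 1.138 and was called (adjusted p = 0.00228, edgeR), and under A-241 it was 0.47 (interval 0.08 to 0.85) and was not (adjusted p = 0.9999, edgeR). The interaction of Ifnar2 with A-241 was -0.69 (interval -1.24 to -0.14, adjusted p = 0.9999, edgeR).

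Of the 15 tested chains, 3 were called lower with A-241 and 1 with A-485 against DMSO. Lifr, a chain of the LIF receptor that signals to STAT3, stood at 13.1, 10.4 and 14.5 CPM with DMSO, at 2.52, 3.21 and 3.16 CPM with A-241 and at 1.41, 2.29 and 2.79 CPM with A-485. Lifr fell, with log2 fold changes of -2.07 for A-241 (adjusted p = 0.000135, edgeR) and -2.55 for A-485 (adjusted p = 0.000179, edgeR). Lifr also fell against IFNγ alone, with log2 fold changes of -2.165 for A-241 and -1.705 for A-485. Prlr, the prolactin receptor, which signals to STAT5, fell with A-241 by 2.74 against DMSO and by 1.12 against IFNγ alone, and without IFNγ its log2 difference between A-241 and A-485, as given, was -1.61. Il4ra, a chain of the IL-4 receptor, which signals to STAT6, fell with A-241 by 1.20 against DMSO and by 1.37 against IFNγ alone, and Il11ra1, a chain of the IL-11 receptor, rose by 0.86 in the latter. In all, 3 of the 15 tested fell and 0 rose with A-241 against DMSO, where 4.35% of all genes were called, and 3 fell and 1 rose with A-241 against IFNγ alone, where 4.09% were. A-485 gave 1 that fell in each, against 0.660% and 0.552% of all genes.

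Of 17 inhibitors of the pathway (SOCS, PTPN and PIAS genes, Cish and Usp18), 16 were tested. With IFNγ 1 rose and 0 fell, against 1.30% of all genes tested. With A-241 against DMSO 1 fell, Socs5 (-1.90, SE 0.40, adjusted p = 0.00658, edgeR), against 4.35% of all genes. None was called in the other 9 comparisons. Socs5 stood at 21.3, 26.7 and 65.0 CPM with DMSO and at 8.83, 11.2 and 9.69 CPM with A-241. Its highest DMSO value was in replicate 3, which stood apart, and how far the call rests on that library was not tested. Of 5 partners and coactivators of STATs, all tested, only Nmi, which binds STAT proteins, was called, with IFNγ, against 1.30% of all genes. Nmi stood at 10.1, 23.4 and 11.7 CPM with DMSO and at 58.5, 38.1 and 51.4 CPM with IFNγ. The groups did not overlap, as was so in either direction for 7.85% of all genes tested. The log2 fold change of Nmi was 1.69 (SE 0.28, adjusted p = 0.00167, edgeR). Irf9, the partner of STAT2, and Ep300 and Crebbp, which encode the inhibitors' targets, were not called in any comparison. Irf9 came near a call with A-241 and IFNγ against IFNγ alone, at -1.03 (SE 0.24, adjusted p = 0.0112, edgeR). It stood at 47.9, 48.3 and 65.8 CPM with A-241 and IFNγ and at 80.0, 154 and 96.7 CPM with IFNγ. The value of 154 CPM was in IFNγ replicate 2, which stood apart. Of 11 ligand genes only Lif passed the filter and it was not called, while Ifng had at most 2 counts in a library and Ifnb1 had 0 in all 18.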

How the data were processed

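QuantSeq 3′ libraries of 18 AT3 samples, 3 in each of 6 conditions grouped by the labels, were used. The deposited file gives whole-number counts of reads for each gene, not normalized. The authors trimmed reads with cutadapt 1.7, aligned them to mm10 with HISAT2 2.1.0 and counted them on exons with featureCounts, per the submitters' processing notes. Gene symbols and coordinates came from GENCODE on GRCm38, the assembly of mm10.

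Genes were kept by filterByExpr and scaled by TMM factors, and CPM values use these factors, except those of cell type markers, which use total counts. All 18 libraries entered a single model with 1 coefficient for each condition in edgeR 4.0.16 (glmQLFit, glmQLFTest, R 4.3.3). Benjamini-Hochberg adjustment ran over 11964 genes, with calls at adjusted p under 0.01. Log2 CPM used a prior count of 2. Fold changes on the log2 scale are given with SE and 95% interval. The method was tested on simulated data. Replicates differed by more than sampling noise (chi-square per degree of freedom 2.09 to 125 over 18 pairs).

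The 9 members, the lists and the alternatives were chosen with earlier results of these data known. The text names every member, the 5 genes most correlated with a called member, and called genes of each list, at most 3 a comparison. Some genes are not reported here. Alternatives were DESeq2 1.42.0, limma 3.58.1 (voom, with and without quality weights), other filters and scalings, a replicate block, only the groups compared, each library left out, both libraries that stood apart left out and, added after the members' counts were seen, a term shared by them. Intervals cover the spread between libraries only.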

Additional observations from a re-analysis of the deposited data

How the results depend on the processing

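Leaving out DMSO replicate 3 and IFNγ replicate 2, or giving them a shared term, changed the same counts of members called. With either setting 2 rose with IFNγ (Stat2 and Stat3), 1 fell with A-241 against DMSO (Stat3), 2 fell with A-241 and 1 with A-485 against IFNγ alone, and 1 rose under A-241 and 2 under A-485. Without both libraries 2.03%, 8.13%, 7.82%, 2.68%, 0.478% and 1.67% of all genes tested were called in these comparisons, in that order. Shares over all genes are not given for the other alternatives, here or above, so their counts of members cannot be set against such a share. The shared term was added after the members' counts had been seen. Voom with quality weights gave these counts too, except for A-241 against DMSO, and also called 1 member, Stat6, between the inhibitors without IFNγ, at the lower level with A-241. In fits of only the groups compared, 0 members rose with IFNγ and 0 fell with A-241 against IFNγ alone, while 1 (Stat3) rose under A-241 and 2 under A-485. With total counts 0 fell with A-241 against IFNγ alone. DESeq2, and a threshold of 0.05, gave 1 member that rose under A-241, Stat2.

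With each library left out in turn, 1 to 2 members rose with IFNγ and 0 to 1 fell with A-241 against IFNγ alone, where without IFNγ replicate 2 the 1 called was Stat3. No count of members called in another comparison changed so. The log2 fold changes with IFNγ then ran from -0.075 to 0.16 for Ifngr1, -0.23 to 0.42 for Ifngr2, -0.063 to 0.80 for Stat5a and -0.15 to 0.40 for Stat6, and that of Stat3 with A-485 against DMSO from -0.51 to 0.094, so their directions were not stable. That of Ifngr2 was also below 0 with quality weights (-0.15) and without both libraries (-0.19), as was that of Stat6 with upper-quartile factors (-0.0077). The cause of these changes was not tested.

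Deviations of same-numbered replicates correlated above 0.1 in 15 of 45 pairs, with r from -0.80 to 0.48. The lowest r was between DMSO replicate 2 and IFNγ replicate 2, and the latter stood apart. Deviations were taken from the mean of the condition, so a library that stood apart also shaped those of its fellows. The check therefore cannot decide whether replicates were paired. With a replicate block the log2 fold change of Stat2 with IFNγ was 2.50, and the counts of members called were those of the fit without it. A minimum of 10 counts in every library left no value for Ifngr2, Jak2 and Stat5a, whose low counts limit what could be detected.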
